A study of Mus musculus with 3 samples.

Results

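Imprinted genes of mouse ESCs were followed through 3 RNA-seq libraries. The genes were a list of 40 symbols from the known imprinted clusters of the mouse, chosen by name and not by level, and all 40 matched a row among the 23953 genes of the deposited tables. By the parental allele known to be expressed where a gene is imprinted, 22 of them are classed as paternally and 16 as maternally expressed. In *Grb10* the expressed allele depends on the tissue and in *Gnas* on the transcript. The classes need not hold in every cell type, as *Ube3a* is known to be silenced on the paternal chromosome in neurons. Allele use in the ESCs was not measured. The libraries came from E14 cells, a mouse ESC line kept with LIF and serum, with 1 library for each of 3 conditions. WT was the first. In the others, a line with a loxP-flanked distal enhancer (DE) of *Oct4* and a doxycycline-inducible mouse *Oct4* transgene was given 4-OH tamoxifen (Tam), which lets Cre remove the DE, or 4-OH tamoxifen with doxycycline (DoxTam), for 48 h. In the study's notation WT cells are +/+ for the DE and the treated cells of its RNA-seq are −/−, and the deletion lines were expanded as clones. Clone, drug and deletion cannot be told apart in the folds against WT. GEO's construct entries name both inducible systems for every library, WT included. There were no replicates, so every fold below compares single libraries and carries no error or p-value.

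Genomic imprinting is the expression of a gene from only the maternal or only the paternal chromosome. It rests on DNA methylation that is laid down in the germ line at differentially methylated regions, survives the reprogramming of the early embryo with the help of ZFP57 and TRIM28, and is read by insulators and long noncoding RNAs that silence neighbouring genes on 1 chromosome. Many imprinted genes act in growth and in the placenta, and cultured ESCs are known to lose or gain imprints. The levels analysed here are summed over both chromosomes, so they do not show which allele was read.

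Levels are given in FPKM, the fragments of a gene scaled to its length and to the size of the library, and can be set side by side between genes. *Pou5f1*, the gene of OCT4, checks the labels, and its level was 664 FPKM in WT, 529 in the Tam-labelled and 458 in the DoxTam-labelled library. By the labels a marked loss would be looked for after tamoxifen and a return with the transgene. Neither was seen, since the Tam-labelled library kept most of the WT level and the DoxTam-labelled library was lowest, so both treated libraries are named here by label only. Libraries differed at low levels. Of 1117 olfactory receptor genes, which ESCs are not known to use, 34.0% were above 0 in WT, 70.7% in the Tam-labelled library and 17.0% in the DoxTam-labelled library, and of 6545 genes between 0 and 1 FPKM in WT, 71.5% were above their WT level in the Tam-labelled library and 35.7% in the DoxTam-labelled library. All 8 ESC markers on a fixed list reached 1 FPKM in every library, and they summed to 2832 FPKM in WT, 2589 in the Tam-labelled and 2588 in the DoxTam-labelled library. Folds of all genes varied with transcript GC content, which is given beside the genes it touches.

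Imprinted genes spanned from near silence to among the most abundant mRNAs. *Peg10*, a retrotransposon-derived gene needed for the placenta, had the highest level of the 40 genes, with 320 FPKM in WT, 255 in the Tam-labelled and 375 in the DoxTam-labelled library, and stood at rank 192 of all genes in WT. *Cd81*, which encodes a tetraspanin of the cell surface, followed with 136 FPKM in WT, 254 in the Tam-labelled and 193 in the DoxTam-labelled library. *Gnas*, the gene of the stimulatory G protein alpha subunit, had 103 FPKM in WT, 93.2 in the Tam-labelled and 99.6 in the DoxTam-labelled library. Also at 20 FPKM or more in WT stood 6 further genes, *Slc38a4*, *Mest*, *Snrpn*, *Igf2r*, *Impact* and *Ube3a*. At the other end, 9 genes stayed under 1 FPKM in every library, namely *Mirg*, *Dlk1*, *Rtl1*, *Zim1*, *Usp29*, *Asb4*, *Magel2*, *Peg12* and *Nap1l5*. The 40 genes summed to 958 FPKM in WT, 1055 in the Tam-labelled and 1139 in the DoxTam-labelled library, and the median gene stood at 3.66, 4.73 and 4.44 FPKM in that order. Without *Peg10* the sums were 638 FPKM in WT, 800 in the Tam-labelled and 764 in the DoxTam-labelled library. The order of the sums thus depended on *Peg10*. *Cd81* was then the highest gene in each library, and a sum without *Cd81* was not taken.

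**Figure D1:**
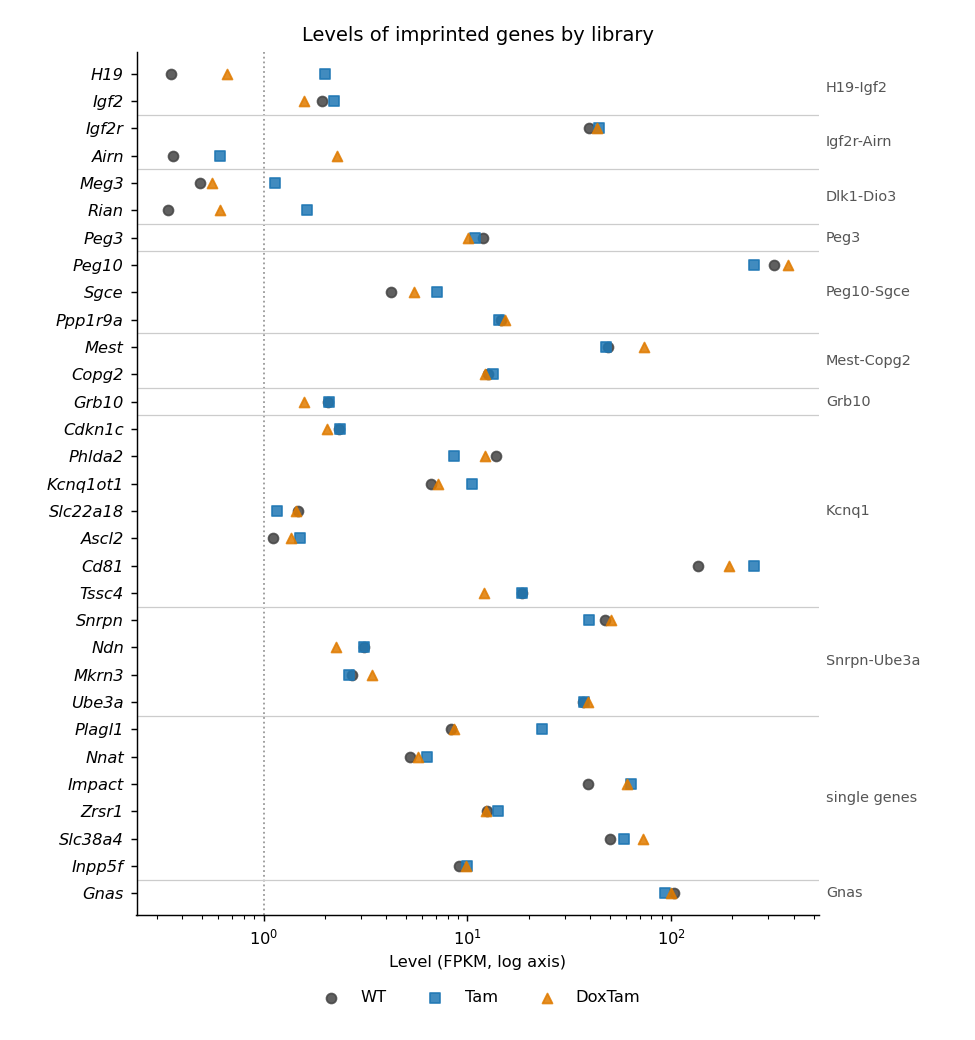
Level of the 31 imprinted genes that reached 1 FPKM in at least 1 library, by imprinted cluster. The x axis is FPKM on a log scale, each marker is 1 library and the dotted line marks 1 FPKM. In most rows the 3 markers lie close together. *Plagl1*, *H19*, *Rian*, *Meg3* and *Cd81* stand to the right in the Tam-labelled library and *Airn* in the DoxTam-labelled library.

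A fold is the log2 ratio of FPKM + 1, which understates the difference at low levels. Higher and lower here mean a fold of 1.5 or beyond (0.58 on the log2 scale) in a gene that reached 1 FPKM in either library. In the Tam-labelled library, 30 of the 40 imprinted genes passed this filter against WT. Of these, 7 were higher, *Plagl1*, *H19*, *Rian*, *Cd81*, *Impact*, *Sgce* and *Kcnq1ot1* (23.3%), beside 6.98% of all 12705 genes that passed. *H19* and *Rian* passed the filter only through the library in which they were high, so their place among the higher genes follows in part from the filter. With no filter 8 of the 40 genes were higher, beside 5.42% of all genes, and with a filter at 5 FPKM 5 of 20, beside 5.56%. The gene added without a filter was *Peg12*, at 0.0524 FPKM in WT and 0.621 in the Tam-labelled library. *Sgce* (4.21 FPKM in WT, 7.07 in the Tam-labelled library) passed the filter at 5 FPKM only through the Tam-labelled library. *Phlda2* alone was lower (3.33%), beside 3.59% of all genes, and the other 22 were within 1.5-fold. The median log2 fold of the 30 genes was 0.093 and that of all genes 0.021. Maternally expressed genes (3 higher and 1 lower of 13, median 0.065) and paternally expressed genes (4 higher and 0 lower of 15, median 0.12) both held genes that were higher.

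In the DoxTam-labelled library, 28 of the 40 genes passed the filter against WT. *Airn* and *Impact* were higher (7.14%), beside 4.12% of all 12384 genes, and 0 were lower, beside 5.78% of all genes. *Airn* passed the filter only through the library in which it was high, and with a filter at 5 FPKM 1 of 20 genes was higher, beside 4.25% of all genes. The median log2 fold was 0.093, and −0.0028 over all genes. Both genes that were higher are paternally expressed, 2 of 16 (median 0.11), with 0 of 10 among maternally expressed genes (median 0.019). Both comparisons share the WT library, so their folds are not independent of each other.

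**Figure D2:**
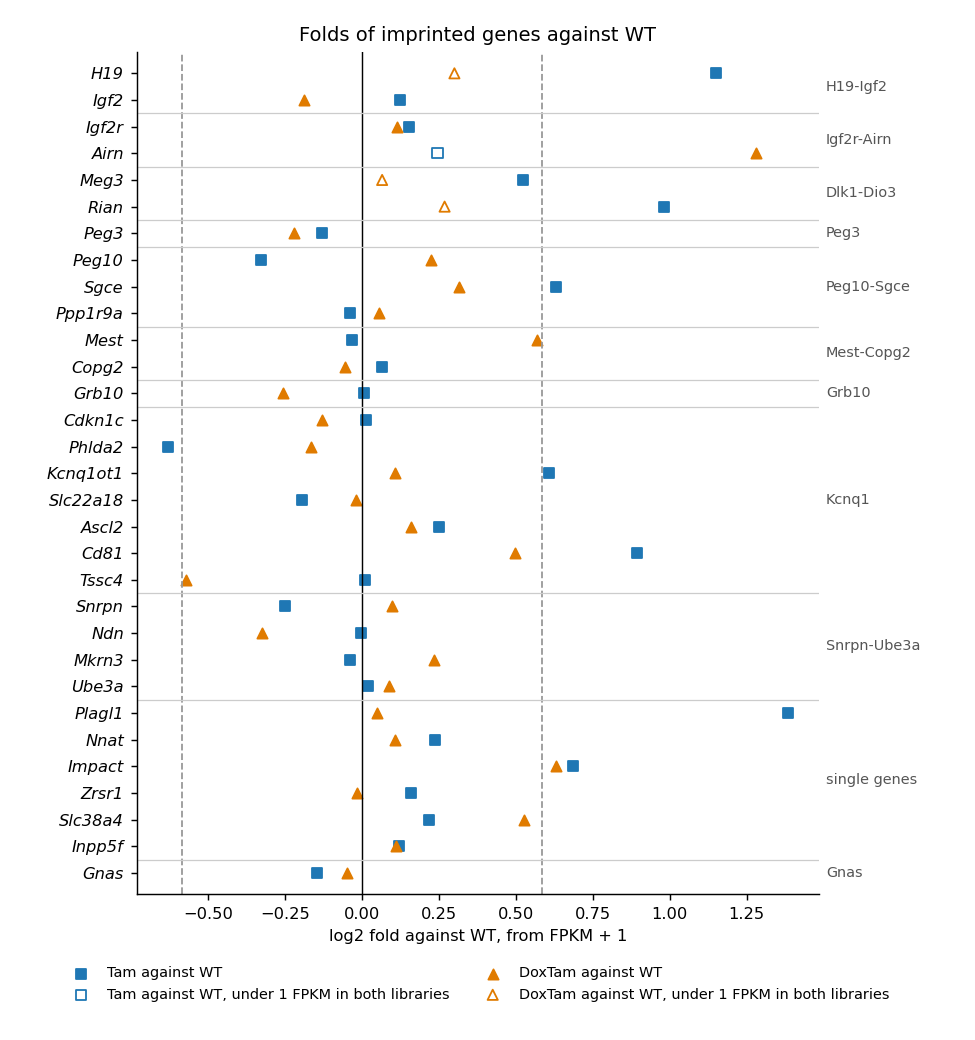
Log2 fold of the same 31 genes against WT, from FPKM + 1, for the Tam-labelled library (squares) and the DoxTam-labelled library (triangles). Open markers are genes under 1 FPKM in both libraries, and dashed lines mark 1.5-fold. *Plagl1* lies at 1.38 and 0.051, *Airn* at 0.25 and 1.28, and *Impact* is beyond the right line with both markers.

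The DNA at the start of the genes with the largest folds is shown for orientation, read from mm9 with gene starts from GENCODE and printed 5′ to 3′ on the strand of the gene. *Plagl1*, *H19* and *Airn* were the genes with a log2 fold above 1 against WT, and their 250 bases upstream are given, with the stretch between the divergent starts of *Peg10* and *Sgce*, a pair that share a differentially methylated region. Capitals mark TGCCGC on either strand (GCGGCA on the other), the core that ZFP57 binds when it is methylated.
Plagl1 (chr10:12810247-12810496, plus strand): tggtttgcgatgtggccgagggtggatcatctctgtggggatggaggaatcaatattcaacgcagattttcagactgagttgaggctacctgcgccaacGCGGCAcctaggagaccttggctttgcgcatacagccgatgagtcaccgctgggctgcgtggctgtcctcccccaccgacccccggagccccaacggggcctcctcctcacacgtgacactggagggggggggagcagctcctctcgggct
H19 (chr7:149764049-149764298, minus strand): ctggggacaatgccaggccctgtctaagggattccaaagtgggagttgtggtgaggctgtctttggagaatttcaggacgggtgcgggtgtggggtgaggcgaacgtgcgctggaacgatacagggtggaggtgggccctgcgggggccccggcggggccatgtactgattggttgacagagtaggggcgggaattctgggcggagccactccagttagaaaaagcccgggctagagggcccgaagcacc
Airn (chr17:12933927-12934176, plus strand): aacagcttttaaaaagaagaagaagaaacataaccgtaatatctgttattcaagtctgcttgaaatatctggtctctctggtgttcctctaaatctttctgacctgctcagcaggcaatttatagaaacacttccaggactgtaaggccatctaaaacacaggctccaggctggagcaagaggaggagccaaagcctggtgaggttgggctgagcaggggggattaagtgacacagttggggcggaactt
Peg10 to Sgce (chr6:4697205-4697305, plus strand, toward Peg10): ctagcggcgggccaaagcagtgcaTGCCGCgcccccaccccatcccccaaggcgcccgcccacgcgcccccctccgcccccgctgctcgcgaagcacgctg

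The *Plagl1* stretch held 15 CpG and 1 core with a GC content of 62.4%, the *H19* stretch 13 CpG and no core with the same GC content, and the *Airn* stretch only 2 CpG and no core with 45.6%. The 101 bases between *Peg10* and *Sgce* held 13 CpG and 1 core with 78.2%. The octamer ATGCAAAT, the letters that OCT4 recognises, was in none of the 4 stretches on either strand. In RefSeq promoters of 300 bases (GRCm38.p6), TGCCGC stood on either strand in 10 of the 34 imprinted genes with an entry (29.4%) and in 13.1% of 27025 genes. A gene was counted when any of its promoter entries held the letters. TGCCGC holds a CpG, and the part of promoter CpG or GC content in these shares was not tested. The 10 were *Igf2*, *Meg3*, *Zim1*, *Mest*, *Copg2*, *Grb10*, *Snrpn*, *Plagl1*, *Nnat* and *Nap1l5*. ATGCAAAT stood in 1 of the 34 (*Asb4*, 2.94%) and in 1.97% of all genes. A match is a description of letters, and no binding or methylation was measured here.

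*Plagl1* (chr10:12810497-12851500) encodes a zinc finger protein that restrains growth and regulates other imprinted genes. Its level was 8.30 FPKM in WT, 23.3 in the Tam-labelled and 8.63 in the DoxTam-labelled library. The Tam-labelled library stood alone, at 2.81 times the WT level in FPKM, while WT and the DoxTam-labelled library differed by a ratio of 1.04. The log2 fold was 1.38 against WT in the Tam-labelled library and −1.33 between the DoxTam-labelled library and the Tam-labelled library. After the trend with GC content was removed the fold in the Tam-labelled library was 1.30.

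*H19* (chr7:149761434-149764048), a maternally expressed noncoding RNA, shares enhancers with the paternally expressed growth factor gene *Igf2*. The level of *H19* was 0.351 FPKM in WT, 2.0 in the Tam-labelled and 0.664 in the DoxTam-labelled library, a log2 fold of 1.15 in the Tam-labelled library. *Igf2* had 1.94 FPKM in WT, 2.21 in the Tam-labelled and 1.59 in the DoxTam-labelled library, within 1.5-fold in all comparisons. The order of the 3 libraries for *H19* was that of *Plagl1*, but at levels where silent genes also gave signal. Olfactory receptor genes had a mean level of 0.0718 FPKM in WT, 0.285 in the Tam-labelled and 0.0616 in the DoxTam-labelled library, and when it was subtracted from each library the log2 fold of *H19* was 1.08.

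The Dlk1-Dio3 cluster on chromosome 12 carries maternally expressed noncoding RNAs, *Meg3*, *Rian* and *Mirg*, and the paternally expressed *Dlk1*, a Notch ligand relative, and *Rtl1*. Silencing of the noncoding RNAs is a known defect of mouse ESC and iPSC lines. *Rian* (chr12:110842155-110899919) had 0.338 FPKM in WT, 1.64 in the Tam-labelled and 0.612 in the DoxTam-labelled library, a log2 fold of 0.98 in the Tam-labelled library, 0.67 after removal of the GC trend and 0.90 after subtraction of the olfactory receptor mean. *Meg3* had 0.489 FPKM in WT, 1.14 in the Tam-labelled and 0.558 in the DoxTam-labelled library, a log2 fold of 0.52 in the Tam-labelled library, within 1.5-fold. *Mirg* had 0.113 FPKM in WT, 0.383 in the Tam-labelled and 0 in the DoxTam-labelled library. All 3 noncoding RNAs were highest in the Tam-labelled library, and in WT all were under 0.5 FPKM. *Dlk1* stayed at or under 0.153 FPKM and *Rtl1* at or under 0.109 FPKM. Between *Dlk1* and *Dio3* (chr12:110691033-111519307) the tables hold 67 small RNA genes, and 66 of them were listed at 0 in every library. The exception, *Mir654*, was listed at 0 in WT, 567 FPKM in the Tam-labelled library and 0 in the DoxTam-labelled library; FPKM of a gene this short is not reliable. Across all 13 imprinted genes between 0 and 1 FPKM in WT, 10 were above WT in the Tam-labelled library and 7 in the DoxTam-labelled library, to be read beside the 71.5% and 35.7% of all such genes given above. After the subtraction *Meg3* no longer passed the filter and had no fold.

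The Kcnq1 cluster lies beside H19-Igf2 on chromosome 7 and is silenced on the paternal chromosome by the long noncoding RNA *Kcnq1ot1*. *Kcnq1ot1* had 6.60 FPKM in WT, 10.6 in the Tam-labelled and 7.19 in the DoxTam-labelled library, a log2 fold of 0.61 in the Tam-labelled library, just past 1.5-fold, and just under it once the olfactory receptor mean was subtracted (0.58). *Phlda2* (chr7:150687450-150688446), a maternally expressed gene that limits placental growth, had 13.9 FPKM in WT, 8.60 in the Tam-labelled and 12.3 in the DoxTam-labelled library, a log2 fold of −0.63 in the Tam-labelled library and −0.51 after removal of the GC trend. *Cd81* (chr7:150238644-150253839) was higher in the Tam-labelled library at 0.89 and stood at 0.50 in the DoxTam-labelled library, with the lowest of its 3 levels in WT. Removal of the GC trend left *Cd81* at 0.93 and 0.58, the second just under 1.5-fold. *Tssc4*, which lies next to *Cd81*, had 18.5 FPKM in WT, 18.6 in the Tam-labelled and 12.1 in the DoxTam-labelled library; its log2 fold was −0.57 in the DoxTam-labelled library against WT, just inside 1.5-fold, and −0.26 after removal of the GC trend. *Cdkn1c*, an inhibitor of cyclin-dependent kinases, *Slc22a18*, a transporter, and *Ascl2*, a transcription factor of the trophoblast, stood between 1.11 and 2.37 FPKM in all libraries, and all were within 1.5-fold. The 3 genes at 0.61 or beyond in the Tam-labelled library thus included the silencing RNA and *Cd81* above WT and *Phlda2* below it. *Kcnq1ot1* overlaps *Kcnq1* on the other strand. Libraries were made with a stranded kit, but the sources used here do not say whether strand was used in counting, so *Kcnq1ot1* and the other overlapping genes named below are uncertain.

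Markers of trophectoderm, the lineage in which several of these genes act, had their highest sum in the Tam-labelled library. Of 7 fixed markers, 3 reached 1 FPKM in WT, 5 in the Tam-labelled library and 3 in the DoxTam-labelled library, none was at 0, and they summed to 20.7 FPKM in WT, 29.3 in the Tam-labelled and 24.7 in the DoxTam-labelled library. *Cdx2* had 0.639 FPKM in WT, 2.82 in the Tam-labelled and 0.128 in the DoxTam-labelled library and *Gata3* 0.0980 FPKM in WT, 1.77 in the Tam-labelled and 0.213 in the DoxTam-labelled library, and both were higher in the Tam-labelled library than in WT. They were 2 of the 5 markers that passed the filter there (40%), beside 6.98% of all genes. Both passed it only through the library in which they were high, so their count follows in part from the filter. The other 5 of the 7 markers did not share one order. *Eomes* had 2.91 FPKM in WT, 4.08 in the Tam-labelled and 5.43 in the DoxTam-labelled library and was higher in the DoxTam-labelled library than in WT. *Krt8* was also highest in the DoxTam-labelled library (7.25 FPKM, beside 5.11 in WT and 5.98 in the Tam-labelled library), *Krt18* and *Elf5* were highest in the Tam-labelled library, and *Hand1* stood between 0.873 and 0.995 FPKM. The summed level of primitive endoderm markers was 99.7 FPKM in WT, 126 in the Tam-labelled and 93.4 in the DoxTam-labelled library, nearly all of it from 1 gene, that of fibroblast markers 5.18 FPKM in WT, 3.21 in the Tam-labelled and 2.90 in the DoxTam-labelled library and that of neural markers 28.9 FPKM in WT, 18.7 in the Tam-labelled and 26.1 in the DoxTam-labelled library. In these lists *Thy1* was lower in both treated libraries, with log2 folds of −0.75 and −0.60, and *Tubb3* was lower in the Tam-labelled library at −0.67. The part of other cell types in the folds was not tested, and a different share of cells cannot be told apart from a different amount of RNA per cell.

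*Airn* (chr17:12934177-13052988) is the paternally expressed RNA that silences *Igf2r*, a maternally expressed receptor that clears IGF2. *Airn* had 0.360 FPKM in WT, 0.613 in the Tam-labelled and 2.30 in the DoxTam-labelled library. The DoxTam-labelled library stood alone, with a log2 fold of 1.28 against WT and 1.03 against the Tam-labelled library, and 1.15 against WT after removal of the GC trend. *Igf2r* had 39.7 FPKM in WT, 44.2 in the Tam-labelled and 43.1 in the DoxTam-labelled library, log2 folds of 0.15 and 0.12. *Airn* starts inside *Igf2r* on the other strand, so without strand their reads cannot be told apart there, and the part of *Igf2r* reads in the level of *Airn* was not tested.

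*Impact*, a regulator of translation under amino acid stress, was the gene counted as higher in both treated libraries. It had 39.0 FPKM in WT, 63.4 in the Tam-labelled and 61.0 in the DoxTam-labelled library, log2 folds of 0.68 and 0.63. Its transcript is rich in A and T (41.4% GC), and with the GC trend taken out the folds were 0.49 and 0.34, both within 1.5-fold. *Slc38a4*, an amino acid transporter of the placenta, had 50.4 FPKM in WT, 58.8 in the Tam-labelled and 73.1 in the DoxTam-labelled library, log2 folds of 0.22 and 0.53, and 0.081 and 0.30 after removal of the trend.

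*Peg10* and *Sgce*, the latter a sarcoglycan gene, start 101 bases apart and are both paternally expressed. *Sgce* (chr6:4624350-4697204) had 4.21 FPKM in WT, 7.07 in the Tam-labelled and 5.48 in the DoxTam-labelled library. Its log2 folds were 0.63 and 0.32, or 0.49 and 0.084 once the GC trend was removed. *Peg10* went the other way in the Tam-labelled library, with log2 folds of −0.33 and 0.22, and neither reached the count. In the Tam-labelled library *Sgce* thus had its highest level and *Peg10* its lowest, while in the DoxTam-labelled library both were above WT. In the same cluster *Ppp1r9a*, which encodes an actin-binding protein of neurons, stayed between 14.2 and 15.3 FPKM.

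*Mest*, a paternally expressed hydrolase gene of mesoderm, had 49.2 FPKM in WT, 48.1 in the Tam-labelled and 73.5 in the DoxTam-labelled library. Its log2 fold was −0.031 in the Tam-labelled library and 0.57 in the DoxTam-labelled library, just inside 1.5-fold against WT. *Copg2*, a coat protein subunit gene whose end overlaps that of *Mest* on the other strand, stayed between 12.2 and 13.3 FPKM. The Snrpn-Ube3a cluster, whose human counterpart is affected in Prader-Willi and Angelman syndromes, had no gene past 1.5-fold. *Snrpn*, a paternally expressed splicing factor gene, had 47.3 FPKM in WT, 39.6 in the Tam-labelled and 50.7 in the DoxTam-labelled library, and *Ube3a*, a ubiquitin ligase gene silenced on the paternal chromosome in neurons, had 36.9 FPKM in WT, 37.4 in the Tam-labelled and 39.3 in the DoxTam-labelled library. *Ndn*, a suppressor of growth in neurons, and *Mkrn3*, a makorin ubiquitin ligase gene, stood between 2.28 and 3.39 FPKM. *Peg12* had 0.0524 FPKM in WT, 0.621 in the Tam-labelled and 0.150 in the DoxTam-labelled library, under the filter throughout.

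The remaining genes stayed within 1.5-fold in every comparison in which they passed the filter. *Peg3*, a zinc finger gene, had log2 folds of −0.13 and −0.22 against WT, *Gnas* of −0.14 and −0.049, and *Grb10*, an adaptor that dampens insulin signalling, stood between 1.58 and 2.10 FPKM. *Nnat*, which encodes a small membrane protein, *Zrsr1*, a splicing factor gene, and *Inpp5f*, a phosphoinositide phosphatase gene, had log2 folds against WT between −0.016 and 0.24.

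**Figure D3:**
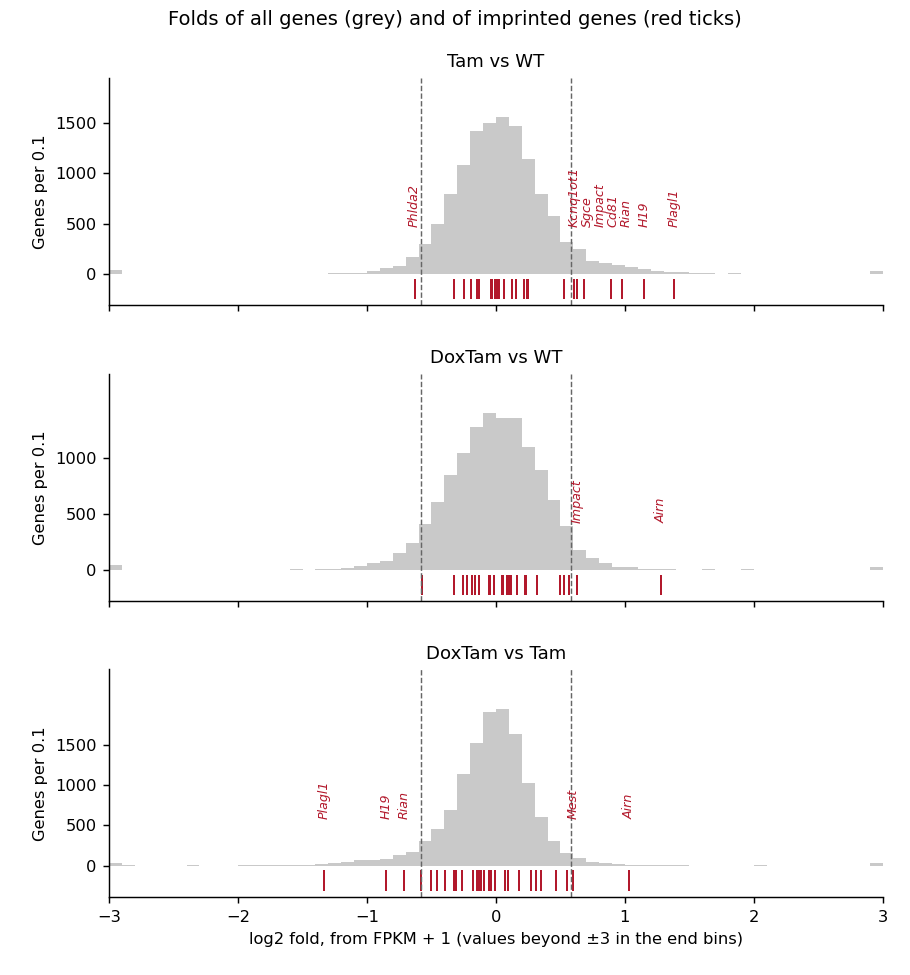
Log2 folds of all genes that passed the filter (grey bars, genes per 0.1 on the log2 scale) and of the imprinted genes (red ticks below) in the 3 comparisons. Dashed lines mark 1.5-fold and names mark the imprinted genes beyond it. Most ticks lie within the bulk of all genes, with 7 beyond the right line for the Tam-labelled library against WT and 3 beyond the left line for DoxTam against Tam.

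Set directly against the Tam-labelled library, the DoxTam-labelled library held 2 imprinted genes that were higher, *Airn* and *Mest* (6.45% of 31), beside 2.09% of all 12647 genes, and 3 that were lower, *Plagl1*, *H19* and *Rian* (9.68%), beside 5.74% of all genes. Of these 5, *Airn*, *H19* and *Rian* passed the filter only through the library in which they were high, and with a filter at 5 FPKM 1 gene of 20 was higher and 1 lower, beside 1.68% and 3.52% of all genes. These levels come from separate tables, in which the WT levels differed by over 1% for only 2 genes. The log2 folds were −0.85 for *H19*, −0.71 for *Rian* and 0.60 for *Mest* (0.58, just inside 1.5-fold, without the GC trend), with those of *Plagl1* and *Airn* given above, and *Tssc4* at −0.58 was just inside. The 3 lower genes are the 3 with the largest folds of the Tam-labelled library against WT, and since that library is in both comparisons they are the same measurement seen from the other side. The median log2 fold was −0.093, beside −0.019 over all genes. Of 13 maternally expressed genes 2 were lower and 0 higher (median −0.12), and of 16 paternally expressed genes 1 was lower and 2 were higher (median −0.073).

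Transcript GC content moved with the folds of all genes. Between the 10% of genes with the lowest GC and the 10% with the highest, the median log2 fold against WT went from 0.24 to −0.20 in the Tam-labelled library and from 0.35 to −0.34 in the DoxTam-labelled library, and Spearman's rho across genes, which are not independent replicates, was −0.376 over 11681 genes and −0.593 over 11395 genes. The imprinted genes had a median GC content of 48.5% and 47.4% in these comparisons, and all genes 50.4% in both. After the trend was removed, 4 of 29 imprinted genes were higher in the Tam-labelled library (*Plagl1*, *H19*, *Cd81* and *Rian*) and 0 lower, beside 5.76% and 2.62% of all genes. In the DoxTam-labelled library 1 of 27 was higher (*Airn*) and 0 lower, beside 2.36% and 2.62% of all genes. *Kcnq1ot1* had no GC value and was not in this count.

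**Figure D4:**
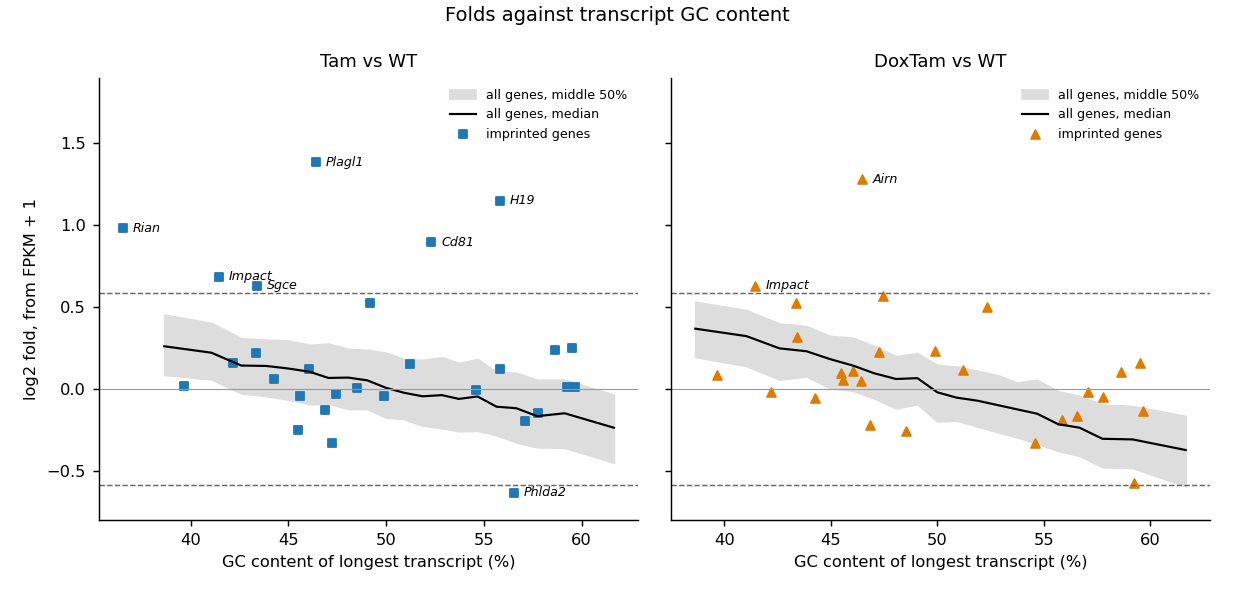
Log2 fold against WT (y axis) by GC content of the longest annotated transcript (x axis, %) for imprinted genes (markers) and for all genes (black line, median; grey band, middle 50%, in 20 bins). *Plagl1* at 46.4% GC stands far above the band for the Tam-labelled library and lies within it for the DoxTam-labelled library. *Airn* at 46.5% GC is shown only for the DoxTam-labelled library, far above the band. *Impact* at 41.4% GC lies where the whole band is raised.

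Of 49 further imprinted genes, 47 had a row. In the Tam-labelled library 24 passed the filter, with 2 higher (*Qpct* and *Snurf*, 8.33%) and 1 lower (*Gpr1*, 4.17%), beside 6.98% and 3.59% of all genes, and a median log2 fold of −0.12, beside 0.021. In the DoxTam-labelled library 25 passed. Of these, 5 were higher (*Casd1*, *Mcts2*, *Pon3*, *Qpct* and *Snurf*, 20%) and 1 lower (*Cobl*, 4%), beside 4.12% and 5.78% of all genes. The median was 0.080, beside −0.0028. *Pon3* passed the filter only through the library in which it was high. This list was not counted again after removal of the GC trend or with another filter. *Casd1* and *Pon3* lie in the cluster of *Peg10* and *Sgce*. *Pon3* had 0.942 FPKM in WT, 1.21 in the Tam-labelled and 2.48 in the DoxTam-labelled library, and *Casd1* 2.40 FPKM in WT, 3.55 in the Tam-labelled and 4.51 in the DoxTam-labelled library. *Snurf*, which shares a transcript with *Snrpn*, had 4.10 FPKM in WT, 7.74 in the Tam-labelled and 7.48 in the DoxTam-labelled library, while *Snrpn* did not pass the count; how reads were split between them was not tested. Against the Tam-labelled library, the DoxTam-labelled library held 4 that were higher (*Gpr1*, *Pon2*, *Pon3* and *Sfmbt2*) and 0 lower of 24, beside 2.09% and 5.74% of all genes.

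Of 28 genes that set, keep or remove imprints 26 passed the filter in every comparison. Against WT 1 was lower and 0 higher in each treated library (3.85% lower, beside 3.59% of all genes for the Tam-labelled library and 5.78% for the DoxTam-labelled library), with medians of −0.037 and −0.0062, beside 0.021 and −0.0028 over all genes, so the list stood near the background. *Zfp57* had 298 FPKM in WT, 289 in the Tam-labelled and 328 in the DoxTam-labelled library, *Trim28* 468 FPKM in WT, 399 in the Tam-labelled and 402 in the DoxTam-labelled library and *Dnmt1*, the maintenance methyltransferase, 132 FPKM in WT, 112 in the Tam-labelled and 109 in the DoxTam-labelled library. The lower gene was *Khdc3* in both, a maternal-effect gene of the oocyte and early embryo, with 15.8 FPKM in WT and 4.93 in the Tam-labelled library. It was lower in both treated libraries, with log2 folds of −1.51 and −0.61, and higher in the DoxTam-labelled library than in the Tam-labelled library at 0.89. *Dppa3*, which protects imprints in the zygote, had 1.09 FPKM in WT, 1.55 in the Tam-labelled and 0.405 in the DoxTam-labelled library and was lower in the DoxTam-labelled library than in the Tam-labelled library at −0.86. In that comparison *Dppa3* passed the filter only through the Tam-labelled library, in which it was high.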

How the data were processed

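RNA-seq of 3 libraries of E14 mouse ESCs (WT, Tam and DoxTam, 1 each) was analysed. The authors deposited 2 tables of gene levels in FPKM, 1 per treated library beside WT, made with Cufflinks 2.0.0 after TopHat and Bowtie alignment (versions not given) to mm9, per the submitters' processing notes. The tables also hold columns of the authors' own comparisons, a log2 fold change, a test score, a p-value and a q-value as deposited, and none was used. Depth is unknown, as no fragment counts were analysed here. In each library the lowest levels of olfactory receptor genes of 939 bases took 3 distinct sizes (0.0845 to 0.114 FPKM in WT, 0.114 to 0.198 in Tam, 0.149 to 0.189 in DoxTam), and the sources used here do not say whether a level averages several runs. Below 1 FPKM a gene rests on few fragments.

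Groups came from the labels. Folds were log2((FPKM + 1)/(FPKM + 1)) on levels as deposited, among genes that reached 1 FPKM in either library, counted at 1.5-fold. No test was made. GC content came from the longest transcript in GENCODE vM1 of the same build, with coordinates for 39 of the 40 genes (not *Kcnq1ot1*), and its trend was removed by lowess (span 0.2, statsmodels 0.14.6). Python 3.11.15 and pandas 2.3.3 were used, and simulated data with 200 changed genes were used to test the folds, the counts at 1.5-fold and the GC removal. The other steps were not tested in this way. Alternatives were a pseudocount of 0.1 or 5 FPKM, a filter at 5 FPKM or none, rescaling to the same total with and without 1206 small RNA genes, GC removal, 2-fold, and subtraction of the olfactory receptor mean (chosen after seeing the data). The imprinted genes, further lists and alternatives were chosen with earlier results of these data known. Every imprinted gene is named. Those counted in any comparison or at 20 FPKM or more in WT have full values and the others mostly ranges; from other lists the genes counted are named, and further values of *Zfp57*, *Trim28*, *Dnmt1*, the trophectoderm markers, *Mir654*, *Tssc4*, *Meg3*, *Mirg*, *Igf2* and *Peg12* were added after their values were seen. *Zim2* and *Zfp264* had no row under these symbols.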

Additional observations from a re-analysis of the deposited data

How the results depend on the processing

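Counts are of imprinted genes at 1.5-fold unless stated. Shares in brackets are those of all genes. For Tam against WT (7 higher, 1 lower), a pseudocount of 5 FPKM left 3 higher and 0 lower (2.33% and 1.32%), removal of the GC trend 4 and 0 (5.76% and 2.62%), and a 2-fold limit 2 and 0 (2.13% and 0.732%), and rescaling to the same total left 0 lower (2.11%) and a median log2 fold of 0.21 (0.15 over all genes). For DoxTam against WT (2 higher, 0 lower), a pseudocount of 5 FPKM left 0 higher (1.42%), a filter at 5 FPKM 1 (4.25%), GC removal 1 (2.36%) and a 2-fold limit 1 (0.711%), a pseudocount of 0.1 FPKM gave 1 lower (9.25%), and rescaling to the same total gave 7 higher (22.0%) and a median of 0.41 (0.32 over all genes). For DoxTam against Tam (2 higher, 3 lower), a pseudocount of 5 FPKM left 0 higher and 1 lower (0.593% and 1.53%), a filter at 5 FPKM 1 and 1 (1.68% and 3.52%), a 2-fold limit 1 and 1 (0.459% and 1.98%) and GC removal 1 higher (1.93%), a pseudocount of 0.1 FPKM gave 5 lower (9.07%), and rescaling to the same total gave 4 higher (6.02%) and turned the median from −0.093 to 0.082 (0.17 over all genes). That rescaling moved the median of all genes by 0.13, 0.32 and 0.19 in the same order, and by −0.045, −0.0043 and 0.041 with a total that left out small RNA genes. Of 78 values that summarise the comparisons, 53 stayed within their limits, 24 moved and 1 turned its sign. *Plagl1* kept its count under all 9 alternatives against both other libraries, and no gene that was counted turned its direction under any alternative run. No paired analysis was possible because each condition has 1 library, and no library could be left out. Depth was not given, so genes under 1 FPKM have no known error.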

Other observations

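*Peg3os*, an RNA antisense to *Peg3* and on none of the gene lists, was noticed after its values were seen. It had 0.196 FPKM in WT, 5.43 in the Tam-labelled and 3.95 in the DoxTam-labelled library, log2 folds of 2.43 and 2.05 against WT, while *Peg3* on the other strand stood at −0.13 and −0.22. The deposited tables give both the same locus, and whether reads were separated by strand was not tested.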
